A study of Mus musculus with 8 samples.

Results

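The 6 genes described here encode parts of the pumps that move sodium, potassium and calcium ions across the membranes of brain cells, and they were compared between young adult (6m) and aged (24m) mice. Atp1b1, Atp1b2 and Atp1b3 encode beta subunits of the sodium-potassium pump (Na/K-ATPase), Atp2a2 encodes a calcium pump of the endoplasmic reticulum (ER), and Atp2b1 and Atp2b2 encode calcium pumps of the plasma membrane. They were taken by name, through their Ensembl identifiers, from a table of 22430 genes, and all 6 were in it. The beta subunits carry no ATPase activity of their own, so the name of pump ATPases fits the 3 calcium pump genes directly and the beta subunits as partners of a catalytic subunit.

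RNA came from whole brain hemispheres of 8 male C57Bl/6JRj mice, 4 of them 6 months and 4 of them 24 months old, with 1 library per mouse. The RNA molecules were sequenced directly on nanopores (Oxford Nanopore Technologies), and the deposited table holds raw read counts per gene. The labels name no treatment and no genotype that differs between the ages. The question addressed is how the abundance of pump transcripts in the hemisphere differs between the ages.

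Pumps of this kind use ATP to hold the ion gradients on which nerve cell firing, transmitter uptake and calcium signalling depend. In the Na/K-ATPase a catalytic subunit carries out transport, while the beta subunit is needed for the enzyme to fold and reach the cell surface, and Atp1b2 is also known as an adhesion molecule of glial cells. Calcium is returned to resting levels by pumps of the ER, which refill the internal store, and by pumps of the plasma membrane, which export it.

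Each young adult library (replicates 1 to 4) held 843706, 573152, 838483 and 818963 counts, and each aged library held 660398, 903595, 742951 and 1255424. The mean totals, 768576 and 890592, did not differ beyond their spread (exact two-sided permutation test, p = 0.543, n = 4 per age). The 6 pump genes together took between 685 and 1162 counts in a young adult library and between 780 and 2489 in an aged one. Levels are given as CPM, the counts of a gene scaled to a common library size with edgeR's TMM factors. Where a library held no count of a gene, a level of up to 2.3 to 5.42 CPM (3 counts, depending on the library) cannot be told from none, and such limits and intervals cover counting error only.

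The outlier check reported further below (Dixon's limit) was exceeded only by young adult replicate 2. Aged replicate 1 was not flagged by it, but had the lowest value of the aged libraries in each of the shares that follow. Genes with a canonical transcript of at least 5 kb took 7.86% of its counts, a share that does not measure the length of the reads. The same share was 8.42% to 8.78% in the other aged libraries and 7.57% to 7.92% in the young adult ones. Mitochondrially encoded genes took 6.48% of its counts, the lowest share of the 8 libraries, where the other aged libraries had 7.92% to 8.94% and the young adult libraries 8.67% to 10.9%. Results for Atp1b1, Atp2a2 and Atp2b1 that rest on this library are therefore given with and without it.

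The libraries carried the transcripts of a brain hemisphere. All 8 pan-neuronal, 5 listed oligodendrocyte and 5 GABAergic neuron markers had enough counts to be tested, as did 6 of 7 astrocyte markers and 5 of 7 microglial markers. Of 7 muscle markers, 6 fell below the minimum for testing, with 0 to 12 counts in any library. No marker of the 15 cell type lists was at 0 in every library, though Pdgfra, of oligodendrocyte progenitors, had only 0 to 3 counts.

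Atp1b2 was higher in aged brains, and Atp1b1 lay in the same direction by a smaller margin. Atp2b1 lay in the opposite direction, and for Atp1b3, Atp2a2 and Atp2b2 the test of the age difference was not passed. A gene was called changed when edgeR's quasi-likelihood test gave, after Benjamini-Hochberg adjustment over 9375 tested genes, an adjusted p no higher than 0.05 together with an absolute log2 fold change (log2FC, 24m minus 6m) of at least 0.58. By this rule 1 of the 6 genes changed, against 14.5% of all tested genes, namely Atp1b2, and the same count of 1 was found with RLE factors, upper quartile factors and library totals alone, while voom with quantile normalization called 2.

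That gene was higher at 24m, as were 10.3% of tested genes, and 0 of the 6 were lower, as were 4.17%, in edgeR as in DESeq2 and voom. At an unadjusted p under 0.05, edgeR had 3 of the 6 higher, Atp1b1, Atp1b2 and Atp1b3, against 18.3% of tested genes, and 1 lower, Atp2b1, against 16%. By the adjusted p alone 3 of the 6 passed, Atp1b1, Atp1b2 and Atp2b1, against 21.7% of tested genes. In 1 of the 6, Atp1b2, no aged library overlapped a young adult one in CPM, which held for 21.1% of tested genes. With 6 genes, 1 changed gene is close to the share in the whole table and does not set the group apart from other genes. The median log2FC of the 6 was 0.18 and 4 of them were positive, where all tested genes had a median of 0.00 and 49.7% were positive. Among all changed genes 71.2% were higher at 24m, a share that came to 84.5% with library totals alone and 59.2% with voom and quantile normalization.

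Atp1b2 (ENSMUSG00000041329; GRCm39 chromosome 11, 69487651 to 69496851, minus strand, 7 exons) encodes the beta subunit isoform known from glia. It had 180.9, 137.4, 185.4 and 182.1 CPM in young adult replicates 1 to 4, and 253.0, 349.3, 390.3 and 321.4 CPM in aged replicates 1 to 4. Every aged library lay above every young adult one, and the lowest aged library was replicate 1. The mean rose from 171.5 ± 22.8 CPM to 328.5 ± 57.7 CPM (SD, n = 4 per age), a fold change of 1.91 with a 95% interval of 1.60 to 2.28. The log2FC was 0.93 (SE 0.125, adjusted p = 7.85e-06), and Atp1b2 ranked 67 by p among the tested genes. It was called changed in 20 of 20 alternatives, leaving out each library included, with a log2FC between 0.85 and 1.04. Behind these levels stand 76 to 149 counts in a young adult library and 166 to 419 in an aged one.

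Atp1b1 (ENSMUSG00000026576; GRCm39 chromosome 1, 164264678 to 164285957, minus strand, 6 exons) encodes the beta subunit isoform typical of neurons in the brain. It had 520.7, 687.1, 705.7 and 465.9 CPM in young adult replicates 1 to 4, and 597.5, 815.1, 799.8 and 1020.9 CPM in aged replicates 1 to 4. In 3 of 4 aged libraries it was above the highest young adult library, whereas aged replicate 1 lay inside the young adult range. From 594.8 ± 119.6 CPM at 6m the mean went to 808.3 ± 173.0 CPM in aged brain (SD, n = 4 per age), a fold change of 1.37 with a 95% interval of 1.14 to 1.65. With a log2FC of 0.45 (SE 0.131, adjusted p = 0.0148) Atp1b1 passed the adjusted p and missed the fold threshold.

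Single libraries decided on which side of the thresholds Atp1b1 fell. Without aged replicate 1 its log2FC was 0.58 with an adjusted p of 0.000133, and it was called changed. Voom with quantile normalization also called it, at 0.63 (adjusted p = 0.00752). Its adjusted p exceeded 0.05 without young adult replicate 1 (0.0629), without young adult replicate 4 (0.0708), without aged replicate 4 (0.0604) and with DESeq2 on quantile-normalized counts (0.0824, at a log2FC of 0.59), in a range over all alternatives from 5.6e-05 to 0.0824. The log2FC was positive in each of them, at 0.34 or above.

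Because Atp1b1 and Atp1b2 both passed the adjusted p in the same direction, their promoters are shown side by side. The sequences are from the GRCm39 assembly and run 5′ to 3′ on the gene's strand. They cover 250 bases before to 50 bases after the start of the GENCODE canonical transcript. The windows are chr1:164285875-164286174 (minus strand) for Atp1b1 and chr11:69496758-69497057 (minus strand) for Atp1b2. Capitals mark matches to the motifs GGGCGG, known as the GC box, and TATAAA, known as the TATA box. Each motif was searched on both strands, so that the former may stand as its reverse complement.
Atp1b1 promoter: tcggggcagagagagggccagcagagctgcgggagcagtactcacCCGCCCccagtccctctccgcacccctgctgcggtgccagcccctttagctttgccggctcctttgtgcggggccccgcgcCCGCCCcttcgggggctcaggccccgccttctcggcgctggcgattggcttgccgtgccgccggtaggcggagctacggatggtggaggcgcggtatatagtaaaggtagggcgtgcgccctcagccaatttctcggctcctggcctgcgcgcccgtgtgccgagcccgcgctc
Atp1b2 promoter: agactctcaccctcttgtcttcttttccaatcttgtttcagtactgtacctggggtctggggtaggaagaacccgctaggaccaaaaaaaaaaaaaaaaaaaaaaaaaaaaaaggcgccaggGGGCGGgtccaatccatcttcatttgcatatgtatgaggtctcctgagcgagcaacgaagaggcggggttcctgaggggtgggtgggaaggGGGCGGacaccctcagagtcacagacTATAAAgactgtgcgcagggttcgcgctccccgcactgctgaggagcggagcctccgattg
Both windows hold 2 GC box matches, and Atp1b2 alone of the 6 genes holds a TATAAA match. Of 21571 promoters of protein-coding genes in the table, 42.6% hold GGGCGG and 13.2% hold TATAAA. All 6 pump genes were matched to a promoter, and each holds GGGCGG at least once, with 6 matches in Atp1b3, 4 each in Atp2a2 and Atp2b1, and 1 in Atp2b2. The letters TGACG (core of the cyclic AMP response element, in 22.6% of promoters) was found in Atp1b3 with 1 match and in Atp2b1 with 3, and CACGTG (E-box, in 7.86%) in none of the 6, both strands searched. In base composition these windows differ, with 71% G and C in Atp1b1 and 52.7% in Atp1b2. A match describes letters in the window and is not evidence that a factor binds there.

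Atp1b3 (ENSMUSG00000032412, chromosome 9, 96214674 to 96246814, minus strand), a further beta subunit isoform, had 57.9, 45.2, 68.5 and 74.1 CPM at 6m and 68.6, 68.6, 84.5 and 92.8 CPM at 24m. The ages overlapped, with 2 of 4 aged libraries above the highest young adult one and the others inside the upper part of the young adult range. Means were 61.4 ± 12.7 CPM and 78.6 ± 12.1 CPM (SD, n = 4 per age). The log2FC of 0.35 (SE 0.166, 95% interval 0.01 to 0.69) did not pass, with an adjusted p of 0.135, nor did it in any of 20 alternatives, where it ranged from 0.26 to 0.46. All 3 beta subunit genes thus had positive fold changes, of which 1 was called.

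Atp2a2 (ENSMUSG00000029467; chromosome 5, 122591575 to 122640903, minus strand) encodes SERCA2, which pumps calcium from the cytosol into the ER. Its levels were 254.8, 251.3, 265.1 and 276.3 CPM at 6m, and 172.2, 249.5, 247.0 and 336.7 CPM at 24m. The young adult libraries lay close together and the aged ones spread on both sides of them, with replicate 1 lowest and replicate 4 highest. The coefficient of variation was 4.29% at 6m and 26.8% at 24m, a difference in spread that was not tested. Means of 261.9 ± 11.2 CPM and 251.4 ± 67.3 CPM (SD, n = 4 per age) gave a log2FC of -0.04 (SE 0.134, adjusted p = 0.877), and the 95% interval of -0.31 to 0.24 leaves out a change as large as the threshold of 0.58. Its sign turned to 0.07 with library totals alone, to 0.02 among genes with over 5 counts in every library, and to 0.11 without aged replicate 1.

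Atp2b1 (ENSMUSG00000019943; chromosome 10, 98750268 to 98862488, plus strand) encodes PMCA1, a widely expressed calcium pump of the plasma membrane. It had 73.9, 79.6, 112.0 and 57.8 CPM at 6m and 47.3, 54.1, 60.1 and 61.4 CPM at 24m. The aged libraries lay close together at the lower end of the young adult range, and 2 of 4 were below the lowest young adult library, replicate 4. Young adult brain had a mean of 80.8 ± 22.8 CPM and aged brain one of 55.7 ± 6.48 CPM (SD, n = 4 per age), a fold change of 0.70 with a 95% interval of 0.54 to 0.90.

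The log2FC of Atp2b1 was -0.52 (SE 0.178, adjusted p = 0.037), short of the fold threshold. It was -0.65 without young adult replicate 4 (adjusted p = 0.0127), where the gene was called changed, and -0.30 without young adult replicate 3 (adjusted p = 0.24), the library with its highest level. Without aged replicate 1 the log2FC was -0.45, and the adjusted p of 0.0588 no longer passed. The adjusted p was at most 0.05 in 9 of 20 alternatives, over a range of 0.0127 to 0.24, and the log2FC was negative in all 20. Atp2b1 and Atp2b2 have canonical transcripts of 8.35 and 8.98 kb. Genes with a canonical transcript of at least 5 kb took a larger share of counts in aged replicates 2 to 4 than in any young adult library. Atp2b1 was lower at 24m. The part of that share in the values of both genes was not tested.

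Atp2b2 (ENSMUSG00000030302; chromosome 6, 113720766 to 114021022, minus strand) encodes PMCA2, a fast calcium pump prominent in cerebellar Purkinje cells. It had 70.2, 38, 109.5 and 72.8 CPM at 6m and 50.3, 80.1, 88.3 and 75.9 CPM at 24m. Every aged library lay inside the wide young adult range. The means, 72.6 ± 29.3 CPM and 73.6 ± 16.4 CPM (SD, n = 4 per age), gave a log2FC of 0.00 (SE 0.208, adjusted p = 0.998), with a 95% interval of -0.43 to 0.43. Leaving out single libraries moved it between -0.17 and 0.27, on both sides of 0.

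**Figure D1:**
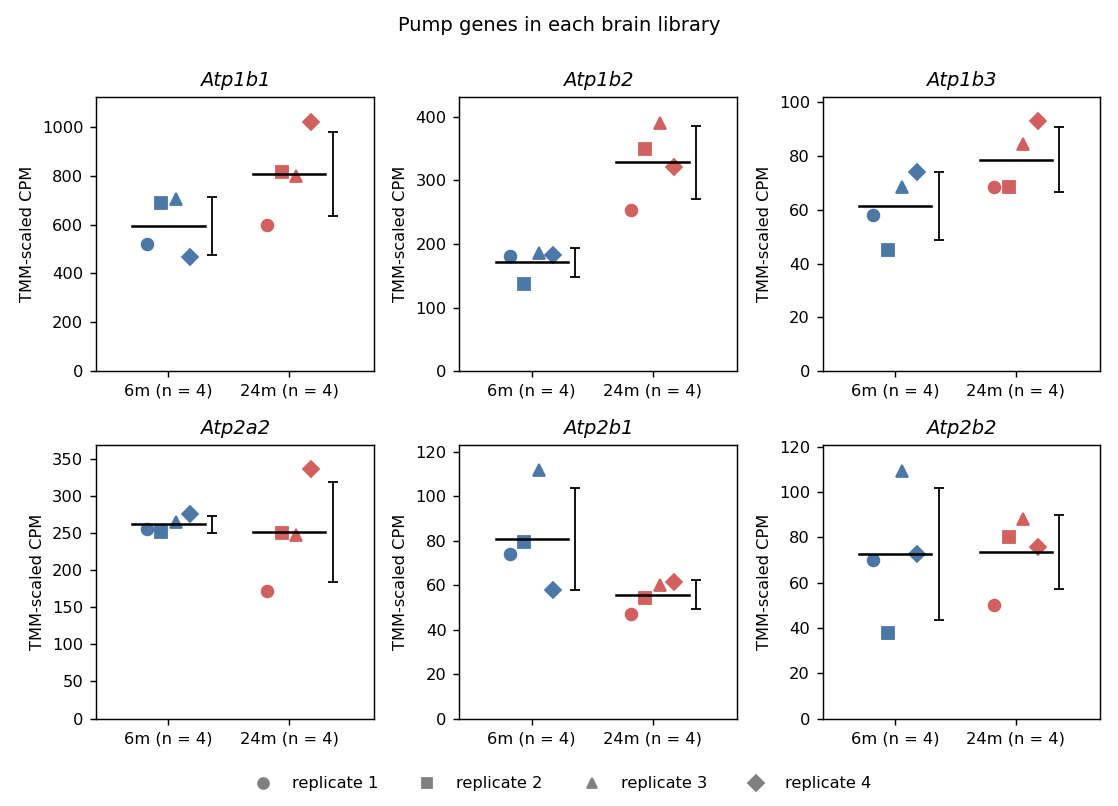
Level of each of the 6 pump genes in every library, in TMM-scaled CPM on axes that start at 0, with young adult libraries in blue and aged libraries in red (n = 4 per age). Horizontal lines are means and brackets are 1 SD. Only for Atp1b2 do the aged libraries, from 253.0 CPM upward, all lie above the young adult ones, which reach 185.4 CPM.

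**Figure D2:**
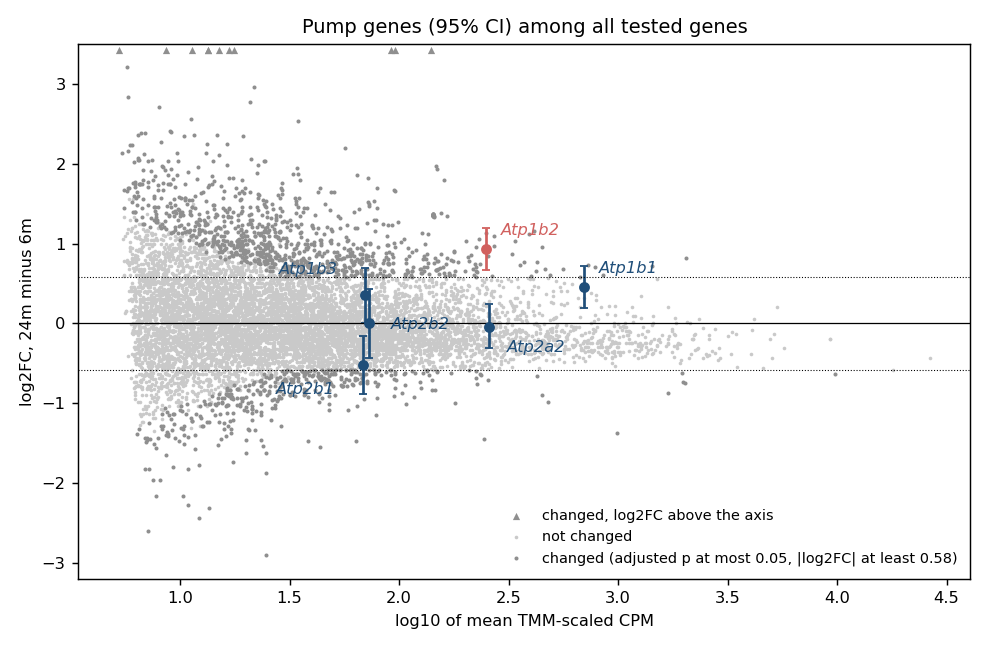
Each dot is 1 of 9375 tested genes, by log10 of mean CPM and log2FC (24m minus 6m). Changed genes are dark grey, genes above the top of the axis are drawn as triangles at its edge, dotted lines mark 0.58 in either direction, and the pump genes carry 95% intervals. Atp1b2 at 0.93 is the pump gene beyond the dotted lines, and Atp2b1 at -0.52 lies lowest.

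For the comparison of genes with one another, levels are given as CPM per kb of the canonical transcript, and in CPM where the order differs. In direct sequencing a read comes from a single RNA molecule, so division by length can understate long transcripts such as those of Atp2b1 and Atp2b2. Which scale suits these reads was not tested. In young adult brain Atp1b1 stood first at 230.6 ± 46.4 CPM per kb, followed by Atp2a2 at 59.0 ± 2.53 and Atp1b2 at 57.1 ± 7.59 CPM per kb, whose libraries overlapped on this scale (SD, n = 4). Atp1b3 followed at 30.5 ± 6.32 CPM per kb, and the plasma membrane pumps Atp2b1 at 9.68 ± 2.73 and Atp2b2 at 8.09 ± 3.26 CPM per kb came last and overlapped. Without division by length Atp1b3 was last at 6m, at 61.4 CPM below Atp2b1 at 80.8 and Atp2b2 at 72.6 CPM, so its place above them rests on the length scale. In aged brain the order of levels was Atp1b1 at 313.3 ± 67, Atp1b2 at 109.5 ± 19.2, Atp2a2 at 56.6 ± 15.2, Atp1b3 at 39.0 ± 5.99, Atp2b2 at 8.20 ± 1.83 and Atp2b1 at 6.67 ± 0.776 CPM per kb. On this scale Atp1b2 did not overlap Atp2a2 at 24m, whereas Atp2a2 overlapped Atp1b3 and Atp2b2 overlapped Atp2b1. In CPM, without the division, Atp1b2 at 137.4 to 185.4 and Atp2a2 at 251.3 to 276.3 did not overlap at 6m, and at 253.0 to 390.3 and 172.2 to 336.7 they did at 24m, so the length scale decides at which age these 2 genes overlap.

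Ratios between pump genes within a library do not depend on scaling between libraries and test whether a pair of genes differed in their change. For Atp1b2 over Atp1b3 the log2 ratio of counts was 1.63, 1.58, 1.43 and 1.29 at 6m and 1.87, 2.34, 2.20 and 1.79 at 24m. All aged libraries were above all young adult ones. The mean moved from 1.48 ± 0.16 to 2.05 ± 0.26 (SD, n = 4 per age), a difference of 0.56 on the log2 scale with an exact two-sided permutation p of 0.0286, the smallest that 70 assignments of the libraries can give. Adjusted over the 6 pairs compared, this p was 0.171. With 4 libraries per age no pair could pass this adjustment on its own, so the missed threshold says nothing about the stability of the ratio.

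For Atp1b1 over Atp1b2 the mean log2 ratio was 1.78 ± 0.43 at 6m and 1.29 ± 0.27 at 24m, with overlap (difference -0.49, exact p = 0.143, adjusted p = 0.257), and the difference was -0.31 without young adult replicate 2. The larger fold change of Atp1b2 than of Atp1b1 was therefore not shown to differ from it. Atp1b1 over Atp1b3 moved by 0.08 (exact p = 0.771, adjusted p = 0.771), and stood at -0.13 without young adult replicate 4 and at 0.29 without young adult replicate 2. Among the calcium pumps, Atp2b1 over Atp2b2 went from a mean log2 ratio of 0.21 ± 0.59 to -0.38 ± 0.23 (difference -0.58, exact p = 0.0857, adjusted p = 0.257), and without young adult replicate 2, which at 1.05 was far above the others, the difference was -0.30. Atp2a2 over Atp2b1 differed by 0.40 (exact p = 0.171, adjusted p = 0.257), and by 0.24 without young adult replicate 3. Atp2a2 over Atp2b2 differed by -0.18 (exact p = 0.629, adjusted p = 0.754), by 0.07 without young adult replicate 2 and by -0.40 without young adult replicate 3. None of the 6 ratios passed at this number of libraries, and 1 of them had ages that did not overlap.

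**Figure D3:**
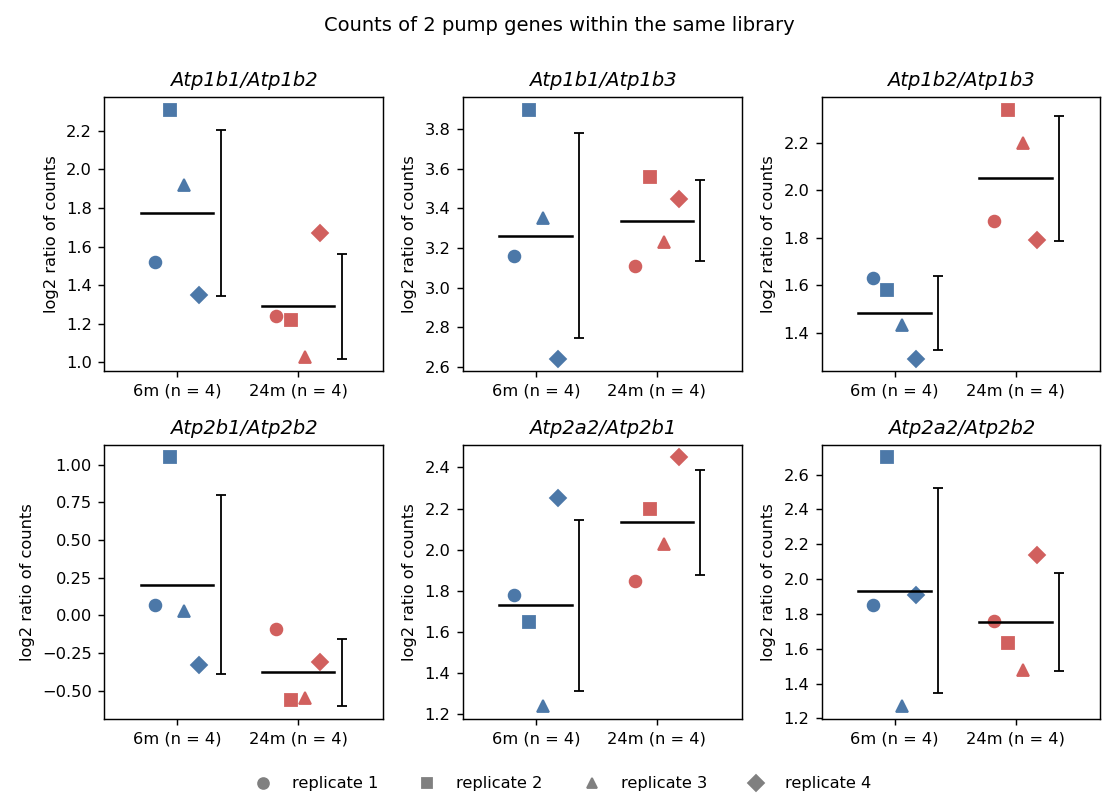
Log2 ratio of the counts of 2 pump genes within each library for the 6 pairs compared, by age (n = 4 per age), with means as lines and 1 SD as brackets. The axes do not start at 0. Atp1b2 over Atp1b3 is the pair without overlap, between 1.29 and 1.63 at 6m and between 1.79 and 2.34 at 24m.

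The FXYD proteins are small membrane proteins that tune the Na/K-ATPase. Of 7 genes 6 were tested, 1 was higher and 0 lower at 24m, and the median log2FC was -0.11. Fxyd6 had 54.8 to 70.2 CPM at 6m and 82.8 to 105.0 CPM at 24m without overlap (log2FC 0.60, adjusted p = 0.0054), and was not called with voom and quantile normalization (0.58, unrounded just below the threshold), without young adult replicate 3 (0.54) or without aged replicate 2 (0.55). Fxyd7, a brain-specific member with the highest CPM of the list, had 223.5 to 260.4 CPM at 6m and 178.7 to 186.8 CPM at 24m (log2FC -0.41, adjusted p = 0.0058), without overlap and short of the fold threshold. Fxyd5 had the lowest log2FC, at -0.77 (adjusted p = 0.112), and was called lower without young adult replicate 2 (-0.98, adjusted p = 0.0327) or without aged replicate 1 (-0.98, adjusted p = 0.0363), in a range over the libraries left out of 0.0327 to 0.362.

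Of the 6 other calcium pump genes 3 were tested and 0 changed, with a median log2FC of 0.00. Atp2c1, a pump of the Golgi apparatus, had 30.1 to 39.4 CPM at 6m and 27.4 to 33 CPM at 24m (log2FC -0.24, adjusted p = 0.423). Atp2a3 had 7.39 to 10.8 CPM and 2.56 to 15.6 CPM (log2FC 0.27, adjusted p = 0.689), and Atp2b3 9.04 to 24.6 CPM and 17.6 to 23.0 CPM (adjusted p = 0.996). The remaining Atp2a1, Atp2b4 and Atp2c2 had at most 9 counts in any library. None of these relatives of Atp2a2, Atp2b1 and Atp2b2 passed the test.

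Among 8 genes for partners and regulators of the calcium pumps 4 were tested, 1 was higher and 0 lower, and the median log2FC was 0.33. Nptn, whose product neuroplastin is a subunit of plasma membrane calcium pumps such as those of Atp2b1 and Atp2b2, had 178.5 to 253.1 CPM at 6m and 240.8 to 359.7 CPM at 24m with overlap (log2FC 0.59, adjusted p = 0.00148). It lost the call at 0.51 to 0.57 without young adult replicate 1 or 4, without aged replicate 2 or 4, and with replicate number as a block. Bsg, a related subunit, had 972.8 to 1035.2 CPM at 6m and 673.1 to 826.1 CPM at 24m without overlap (log2FC -0.43, adjusted p = 0.000945). Calm3, with the highest CPM of the list, had 1173.7 to 1256.7 CPM and 1706.7 to 1853.0 CPM (log2FC 0.56, adjusted p = 2.16e-05), close to the threshold, and was called in 7 of 20 alternatives, among them without young adult replicate 2 (0.59) and without aged replicate 4 (0.61). The count of higher genes in this list was 2 without young adult replicate 2, and in other settings, among them library totals alone, DESeq2 on quantile-normalized counts, voom, and genes with over 5 counts in every library. It was 0 with replicate number as a block, and without young adult replicate 1 or 4 or aged replicate 2. The regulators of SERCA pumps Pln, Sln, Mrln and Strit1 had at most 6 counts in any library.

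**Figure D4:**
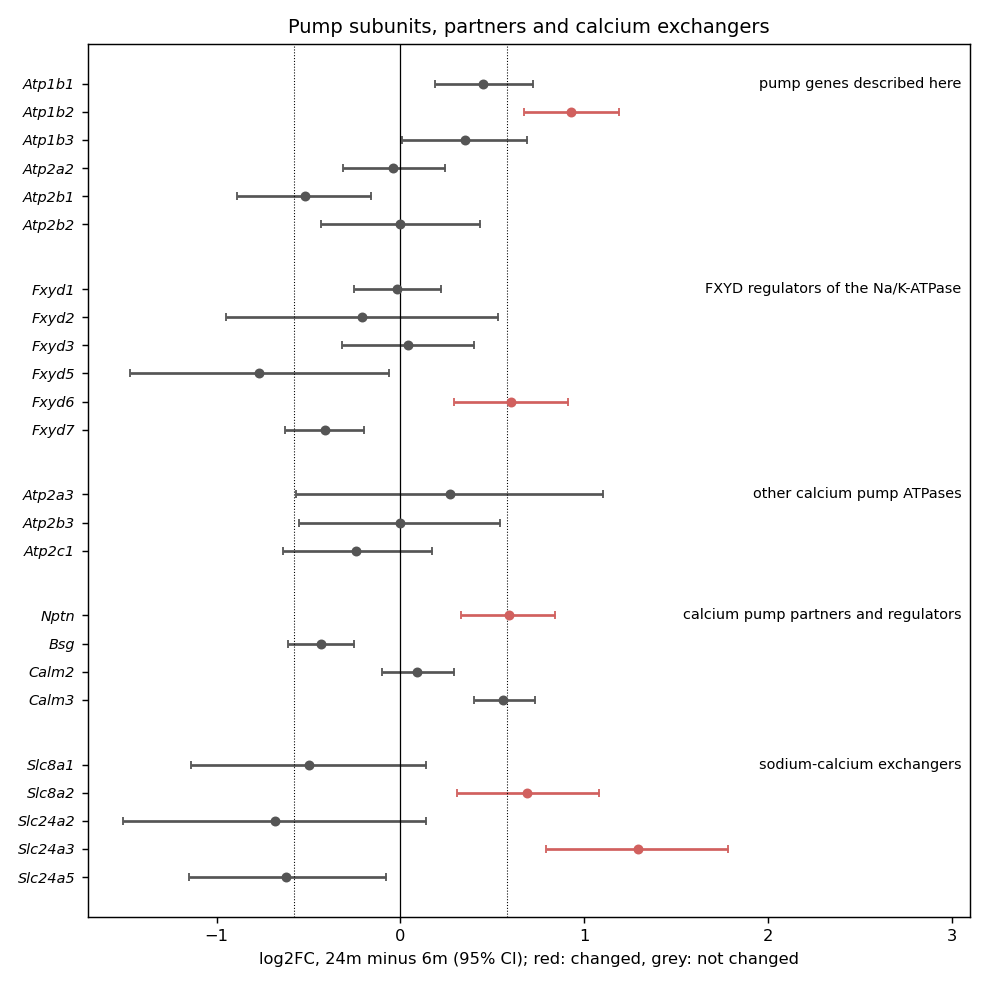
Log2FC (24m minus 6m) with 95% intervals of the 6 pump genes and of the tested genes of 4 further lists, with changed genes in red and dotted lines at 0.58 in either direction (n = 4 per age). The beta subunit genes Atp1b1, Atp1b2 and Atp1b3 lie to the right of 0, at 0.45, 0.93 and 0.35, and Atp2b1 lies to its left, at -0.52.

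The wider set of ion transport genes comprised 92 genes in 9 lists, of which 56 were tested, 10 were higher and 2 lower (21.4% changed, beside 14.5% of all tested genes), with a median log2FC of 0.01. With 1 library left out, 7 to 12 were higher, 7 without aged replicate 2 and 12 without aged replicate 1, and 1 to 3 lower, 1 without young adult replicate 3 or aged replicate 2 or 4. With library totals alone 13 were higher and 1 lower. Of the 2 lower genes, Slc12a2 was not tested among genes with over 5 counts in every library, and Atp13a1 was tested there and not called. Slc12a2 was called in all 18 alternatives that tested it. Of the 10 higher genes, Mcu and Orai2 passed the minimum for testing only through the aged libraries. In 14 of the 56 (25%) the ages did not overlap, which held for 21.1% of all tested genes. Of 9 sodium-calcium exchanger genes 5 were tested and 2 were higher, with a median of -0.50. Slc24a3 had 12.3 to 19.9 CPM at 6m and 27.4 to 47.3 CPM at 24m (log2FC 1.29, adjusted p = 0.000483), and Slc8a2 33.2 to 52.7 CPM and 56.0 to 96.0 CPM (log2FC 0.69, adjusted p = 0.0104), lost without young adult replicate 1 (0.57) or aged replicate 3 (0.55). The lowest was Slc24a2 at -0.68 (adjusted p = 0.237).

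Genes that release or refill the ER store on which Atp2a2 acts included 8 tested of 11, with 2 higher, 0 lower and a median log2FC of 0.06. Stim1, the calcium sensor of the store, had 12.7 to 20.1 CPM at 6m and 22.2 to 38.1 CPM at 24m (log2FC 0.94, adjusted p = 0.0117), and was not called with DESeq2 on quantile-normalized counts (adjusted p = 0.0527). Orai2, a channel that the sensor opens, had 1 to 3 counts in each young adult library and 5 to 17 in each aged one, a ratio of 3.91 after scaling with a 95% exact counting interval of 1.89 to 9.12 (adjusted p = 0.00458 in the fit), and DESeq2 on quantile-normalized counts gave it no adjusted p. Orai2 passed the minimum for testing only through the aged libraries, so its call rests on them. Among genes with over 5 counts in every library Orai2 was not tested, which left 1 higher gene in the list. Itpr1, a release channel with the highest CPM of the list, was at 77.8 to 94.8 CPM and 65.5 to 149.7 CPM (log2FC 0.28, adjusted p = 0.274). The lowest was Ryr1 at -0.74 (adjusted p = 0.218).

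All 6 genes of the mitochondrial calcium uniporter were tested, 1 was higher and 0 lower, and the median log2FC was 0.11. Mcu, its pore, had 0 to 6.22 CPM at 6m and 11.5 to 15.6 CPM at 24m (log2FC 1.74, adjusted p = 0.00727), while Smdt1 had the highest CPM and the lowest log2FC of the list, -0.31 (adjusted p = 0.0223). With 0 to 5 counts in each young adult library and 9 to 17 in each aged one, Mcu passed the minimum for testing only through the aged libraries, so its call rests on them. Among genes with over 5 counts in every library Mcu was not tested, which left 0 higher genes in the list. Of 11 calcium buffers and sensors all were tested and 2 were higher, with a median of 0.20, and 4 were higher without aged replicate 1, where Calb1 (0.66) and Canx (0.62) were also called, as they were with library totals alone. With another library left out 3 were higher without young adult replicate 1 (Calb1, 0.69), 2 (Canx, 0.63) or 3 (Canx, 0.59). Hpcal4 had 4.98 to 16.3 CPM at 6m and 45.7 to 92.1 CPM at 24m (log2FC 2.54, adjusted p = 1.27e-06), and Ncald 36.9 to 56.0 CPM and 64.0 to 93.4 CPM (log2FC 0.78, adjusted p = 0.00245). Pvalb, with the highest CPM of the list, had a log2FC of -0.09 (adjusted p = 0.663) and Calb2, the lowest, -0.25 (adjusted p = 0.14).

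Of 9 cation-chloride cotransporter genes, which use the sodium and potassium gradients, 4 were tested, 0 were higher and 1 was lower, with a median log2FC of -0.07. That was Slc12a2 (NKCC1), with 3.62 to 20.9 CPM at 6m and 4.16 to 7.67 CPM at 24m (log2FC -1.51, adjusted p = 0.0117), where young adult replicate 2 lay below every aged library. Slc12a5 (KCC2), with the highest CPM, had a log2FC of -0.32 (adjusted p = 0.0329), and Slc12a4, the highest, 0.28 (adjusted p = 0.429).

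Of 25 other P-type ATPase and subunit genes 9 were tested, 1 was higher and 1 lower, with a median of -0.25. Their calls rested on few settings. Tmem30a, a subunit of lipid flippases, had a log2FC of 0.74 (adjusted p = 0.0481) and was called in 8 of 20 alternatives, and among the fits that left out 1 library in 1 of 8, that without aged replicate 1 (0.95), where the adjusted p ranged from 0.00223 to 0.17. Atp13a1 had -0.59 (adjusted p = 0.0156), called in 8 of 20, and lost without young adult replicate 2 (-0.54) or 3 (-0.56) and without aged replicate 2 (-0.51) or 4 (-0.50). Atp9a, with the highest CPM, was at 636.0 to 685.6 CPM and 517.0 to 554.8 CPM without overlap (log2FC -0.32, adjusted p = 0.00779), and Atp8a2 was lowest at -0.66 (adjusted p = 0.24).

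Some of the 6 pump genes share exon bases with genes on the opposite strand. Atp1b1 shares 587 of its 4849 exon bases with Nme7, which averaged 12.5 counts and had a log2FC of -0.09 (adjusted p = 0.878), and Atp2a2 shares 112 of 12239 with Anapc7 (log2FC -0.24, adjusted p = 0.338). Of genes outside the count table, Gm43361 shares 3206 bases and Gm57291 396 bases with Atp2a2, and Gm32391 shares 290 with Atp1b1. The sources used here do not say whether the counting took strand into account, and the part of such reads in the counts of Atp1b1 and Atp2a2 was not tested. No pump gene shares exon bases with another annotated gene on its own strand. No annotated transcript matched at least 50% of a pump gene's canonical transcript at 95% identity or more, and the longest such match was of Atp1b3 to the processed pseudogene Gm1848, at 40%.

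Genes with the most similar profile to each pump gene, up to 2 of them, were found by Pearson correlation of log2 CPM over the 8 libraries, among 2720 tested genes with a mean count of at least 50. The libraries share age and depth differences, so r describes likeness only. Atp1b2 had among its closest Sirpa (r of 0.980), which was called higher at 24m (log2FC 1.10). Atp1b1 was most like Ndfip1 (0.980) and Gad1 (0.973), the latter a GABAergic neuron marker called higher (log2FC 0.75). For Atp1b3 they were Ndrg1 (0.962) and Rgs10 (0.949), and for Atp2a2 Sem1 (0.947) and Pkp4 (0.945). Atp2b1 was most like Fyn (0.965) and mt-Nd1 (0.937), a mitochondrially encoded gene with 5238.6, 5916.4, 6561.6 and 4136.4 CPM at 6m and 2879.3, 3936.2, 3690.6 and 4335.3 CPM at 24m. Atp2b2 was most like Cops3 (0.978) and Sra1 (0.887).

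Cell type markers also differed between the ages, and in whole tissue fewer cells of a type and less RNA per cell cannot be told apart. Beside Atp1b2, of 7 astrocyte markers 6 were tested, and 3 were higher, Gfap (log2FC 1.94), Slc1a3 (1.65) and Gja1 (1.42), while Slc1a2 was lower (-0.59, called in 10 of 20 alternatives, and lost without young adult replicate 4 at -0.50 and without aged replicate 3 at -0.54 or 4 at -0.56). Aqp4 was at 1 to 11 counts, and no astrocyte marker was at 0 in every library. The summed level of the list was 2773.1, 2359.7, 2527.8 and 2870.6 CPM at 6m and 3104.9, 2628.3, 2482.6 and 2360.2 CPM at 24m, mostly from Aldoc (log2FC -0.13, adjusted p = 0.393). The ages did not overlap in 5 of the 6 tested markers, against 21.1% of all tested genes, with Gfap, Slc1a3 and Gja1 above at 24m, as Atp1b2 was, and Slc1a2 and Aldh1l1 below. The part of astrocyte content in the level of Atp1b2 was not tested.

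Beside Atp1b1, of 8 pan-neuronal markers 2 were higher, Syp (log2FC 0.97) and Snap25 (0.77), and 0 lower, with Tubb3 the highest in CPM (-0.30). Syt1 and Rbfox3 were called as well without young adult replicate 3 (0.64 and 0.58), Syt1 also without aged replicate 1 (0.73) and Rbfox3 without aged replicate 4 (0.62). The sum of all 8 was 2607.0, 2567.6, 2673.4 and 2635.8 CPM at 6m and 3226.8, 3141.9, 3351.5 and 3095.0 CPM at 24m, without overlap. Aged replicate 1 was not set apart in this sum, but within the list Snap25, like Atp1b1, lay inside its young adult range there, at 260.6 CPM, against 600.2 to 666.6 CPM in the other aged libraries and 252.4 to 390.6 CPM at 6m. Snap25 was not called with DESeq2 on raw counts (adjusted p = 0.111) or on quantile-normalized counts (adjusted p = 0.0932). Of 4 glutamatergic markers all were tested and 2 were higher, with sums of 595.7, 551.5, 602.4 and 619.1 CPM against 813.9, 919.1, 1036.5 and 719.5 CPM, mostly Slc17a7. Of these 2, Slc17a7 (log2FC 0.58) lost the call in 4 of 20 alternatives, among them without young adult replicate 2 (0.54) and without aged replicates 2 (0.56) or 3 (0.49). Tbr1 (0.81) was called in 10 of 20, and of 8 fits with 1 library left out only without young adult replicate 2 or aged replicate 1, with adjusted p from 0.00553 to 0.146. Of 5 GABAergic markers 1 was higher, Gad1 (0.54 and not called without aged replicate 4, and not called with DESeq2 on quantile-normalized counts, adjusted p = 0.085), with sums of 967.5, 1027.0, 1050.5 and 1057.3 CPM against 928.3, 924.3, 1046.8 and 1127.5 CPM, mostly Sst. The part of neuron content in the levels of Atp1b1, Atp1b3 and the calcium pump genes was not tested.

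Beside Atp2b2, of 4 Purkinje cell markers 1 was higher, Car8, with sums of 1722.0, 1428.5, 1416.4 and 1514.4 CPM at 6m and 1553.2, 1539.7, 1351.3 and 1422.9 CPM at 24m, mostly Pcp4. Itpr1 stands both there and among the ER genes. Of 5 cerebellar granule cell markers 2 were higher, Cbln1 and Cbln3, with sums of 152.6, 61.5, 94.6 and 115.5 CPM against 175.3, 219.4, 186.8 and 164.9 CPM, mostly Cbln1. Without aged replicate 1, 4 of the 5 were higher, with Gabra6 (0.84) and Neurod1 (0.86) added. The call of Cbln1 was lost without young adult replicate 2 (0.57) or aged replicate 2 (0.68) and with DESeq2 on raw counts (adjusted p = 0.126) or on quantile-normalized counts (adjusted p = 0.135), and that of Cbln3 with DESeq2 on quantile-normalized counts (adjusted p = 0.0519) and with voom (1.28, adjusted p = 0.0737). With 1 to 4 counts in each young adult library and 5 to 17 in each aged one, Cbln3 passed the minimum for testing only through the aged libraries, so its call rests on them. Among genes with over 5 counts in every library Cbln3 was not tested. Neither Atp2b2 nor the Purkinje cell sum separated the ages, while the granule cell sum did. How far the share of cerebellum in each hemisphere enters the level of Atp2b2 was not tested.

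Markers of other cells also moved with age beside the pump genes. Of 5 oligodendrocyte markers 1 was higher, Mbp, the highest in CPM, with sums of 2188.5, 1772.0, 1884.3 and 2338.2 CPM at 6m and 3327.4, 2921.5, 3204.3 and 2387.8 CPM at 24m. Cnp was called too without young adult replicate 1 (0.68), aged replicate 2 (0.63) or aged replicate 4 (0.66). Of 4 oligodendrocyte progenitor markers 3 were tested and 1 was higher, Sox10, with sums of 134.2, 137.4, 119.5 and 155.7 CPM against 202.7, 200.7, 240.6 and 194.1 CPM, mostly Olig1. For Olig1 itself the log2FC was 0.58, unrounded just below the threshold (adjusted p = 0.0049), and it was called in 13 of 20 alternatives, among them without young adult replicate 4 (0.70) and without aged replicates 1 (0.62), 2 (0.60) or 4 (0.62), which brought the count to 2. Of 7 microglial markers 5 were tested and 1 was higher, Tmem119. Its call was lost without young adult replicate 3 (0.95, adjusted p = 0.0541) or aged replicate 3 (0.88, adjusted p = 0.0731), in a range of 0.0133 to 0.0731 over the libraries left out. DESeq2 on raw counts (adjusted p = 0.0609) or on quantile-normalized counts (adjusted p = 0.0932) did not call Tmem119. The microglial sums were 405.0, 414.1, 438.1 and 453.3 CPM at 6m and 699.6, 524.0, 572.0 and 509.3 CPM at 24m. C1qa, the highest in CPM, averaged 172.7 CPM of a mean sum of 427.6 at 6m and 243.6 CPM of 576.2 at 24m. It was called without aged replicate 4 (0.58). Cx3cr1 and P2ry12 were at 0 to 13 counts. These 3 sums, like Atp1b2, were higher in every aged library than in any young adult one.

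All 5 blood markers were lower at 24m, as were 4.17% of tested genes. Hba-a1 was the highest of them in CPM, with sums of 6997.5, 7943.4, 10031.6 and 6090.3 CPM at 6m and 6282.9, 3958.0, 4476.3 and 3350.4 CPM at 24m, which overlapped. At the identity minimum used for the pump genes, Hba-a2 matched 89.3% of the Hba-a1 transcript and Hba-a1 matched 100% of that of Hba-a2. Hbb-bs and Hbb-bt matched over 82.7% and 82.1%. How reads were divided within these pairs was not tested, so the 5 calls cannot be taken as separate results. Of the 5, Alas2 was called in 9 of 19 alternatives and, with 1 library left out, only without aged replicate 1 (-1.28), over adjusted p values of 0.00559 to 0.142, and Hba-a2 was lost without young adult replicate 3 (-0.57). Hba-a1 and Hba-a2 were also not called with DESeq2 on quantile-normalized counts (-0.49, adjusted p = 0.111, and -0.50, adjusted p = 0.0803) or with voom and quantile normalization (-0.53 and -0.54, short of the fold threshold), while Hbb-bs and Hbb-bt were called in 20 of 20 alternatives. Aged replicate 1 had the most blood transcripts of the aged libraries and the lowest levels of Atp1b1, Atp1b2, Atp2a2, Atp2b1 and Atp2b2 among them. Of the striatal (5 tested), endothelial (1), choroid plexus (4), ependymal (3) and muscle (1) markers 0 changed in edgeR, as in DESeq2 and voom, and at an unadjusted p under 0.05 edgeR had 1 of the 14 higher and 3 lower. Folr1, of the choroid plexus (-0.84, adjusted p = 0.0537), was called lower without young adult replicate 3 (-1.1) or aged replicate 1 (-0.88), with no filter (-0.82) and with replicate number as a block (-0.80). The part of these cell types in the values of the pump genes was not tested.

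**Figure D5:**
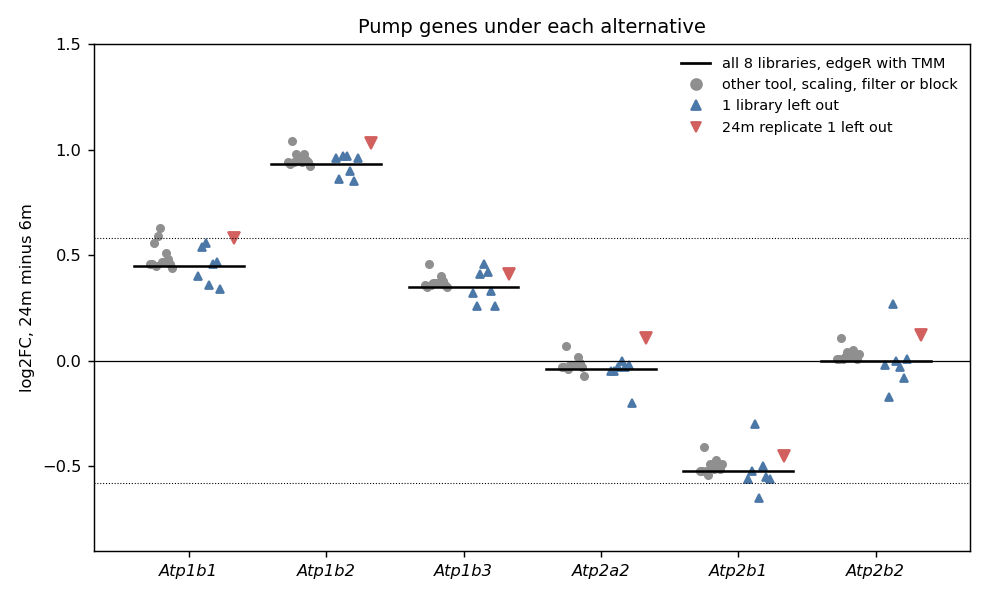
Log2FC (24m minus 6m) of each pump gene with all 8 libraries (line), under other tools, scalings, filters or a replicate block (grey), and with 1 library left out (triangles, aged replicate 1 in red), with dotted lines at 0.58 in either direction. Atp1b2 stays between 0.85 and 1.04, Atp1b1 reaches the line in 3 alternatives, Atp2b1 passes it in 1, and Atp2a2 and Atp2b2 lie on both sides of 0.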

How the data were processed

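The deposited values are raw counts per gene. The authors sequenced RNA of 8 mouse brain hemispheres directly on ONT flow cells, aligned the reads (minimap2 2.24, GRCm39) and assigned them to Ensembl genes with featureCounts. Strand and multi-mapping settings are not given in the sources used here, and the labels name another library kit than the methods, which were followed. Later normalization by the authors is not part of the values.

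Genes with a mean count over 5 (9375 of 22430, holding 98.6% of counts) were tested for age with edgeR 4.0.16 (TMM, quasi-likelihood, Benjamini-Hochberg over all tested genes) in R 4.3.3. Alternatives used DESeq2 1.42.0, limma 3.58.1, other factors and filters, a replicate block, and each library left out in turn. Ratios within libraries, with 0.5 counts added, were tested by exact two-sided permutation in Python 3.11.15, adjusted over 6 pairs. Intervals from the edgeR fit cover 95%.

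Positions and lengths are from GENCODE vM39, matched for 22281 genes. Promoters are RefSeq's. From 9 lists of related genes, those past both thresholds, the highest in CPM, and the highest and lowest log2FC are named, while 15 marker lists are given by counts, sums and examples. Atp2b3 was named after its values were seen. Some genes were left out of the lists and of the most similar genes, whatever their values. The members and lists were chosen with earlier results of these data known.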

Additional observations from a re-analysis of the deposited data

Results flagged for a closer look

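In young adult replicate 2 the level of Atp1b2 was 137.4 CPM, far below the other 3 young adult libraries at 180.9 to 185.4 CPM. Its distance to the nearest of them was 0.906 of the whole range of the group, above Dixon's 95% limit for 4 samples. Without this library the log2FC of Atp1b2 was 0.86 with an adjusted p of 7.94e-05, in a range over all alternatives of 1.94e-13 to 0.000191.

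The same library had the lowest total, 573152 counts, where the others held 818963 to 843706, a distance of 0.909 of the range. In all, 68 groups of 4 libraries were looked at and 2 exceeded the limit, and chance alone does so in about 1 in 20 groups.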

How the results depend on the processing

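Of 228 alternative values, from 15 other settings (13 for genes and counts, 3 for ratios, 1 of them in both) and 8 libraries left out in turn, 210 kept to the reported result: for a gene its direction and whether it passed both thresholds, for a ratio its direction and its adjusted p above 0.05, and for a count a value within 1.5 times. All 20 values of Atp1b2 and all 20 of Atp1b3 did so. This leaves out the adjusted p by itself, which was at most 0.05 in 16 of 20 alternatives for Atp1b1 and in 9 of 20 for Atp2b1, both at most 0.05 as reported.

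Counts of changed genes among all tested genes, 1359, came to 834 with DESeq2 on raw counts and 824 with DESeq2 on quantile-normalized counts, and to between 989 and 1594 with 1 library left out. Pump genes changed came to 2 with voom and quantile normalization and to 3 by the adjusted p alone, whose construction drops the fold threshold. With 1 library left out they ranged from 1 to 2, with 2 without young adult replicate 4 and without aged replicate 1. The log2FC of Atp1b1 was 0.63 with voom, and 0.34 to 0.58 with 1 library left out. That of Atp2a2 turned to 0.07 with library totals and 0.02 among genes with over 5 counts in every library, and ranged from -0.20 to 0.11 with 1 library left out. Those ranges were -0.65 to -0.30 for Atp2b1, -0.17 to 0.27 for Atp2b2, -0.13 to 0.29 for the log2 ratio of Atp1b1 over Atp1b3 and -0.40 to 0.07 for Atp2a2 over Atp2b2. The cause was not tested, beyond the smaller number of libraries.

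Same-numbered libraries of the ages were not paired (r of deviations 0.06, -0.01, 0.01 and -0.16). With replicate number as a block 1308 genes changed, 1 of them a pump gene, and sign flips of 4 differences cannot give a p below 0.125 for a ratio. Library totals alone moved the median log2FC of all tested genes to 0.10. A change at the threshold of 0.58, in the direction of the gene's log2FC, lies inside the 95% intervals of Atp1b1, Atp1b3 and Atp2b1 and outside those of Atp2a2 and Atp2b2.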

Other observations

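Summed over isoforms, a choice made after the values were seen and not tested, the beta subunit genes Atp1b1, Atp1b2 and Atp1b3 had 759.4, 869.7, 959.6 and 722.0 CPM in young adult replicates 1 to 4, and 919.1, 1233.0, 1274.6 and 1435.1 CPM in aged replicates 1 to 4. Aged replicate 1 lay inside the young adult range and the other 3 aged libraries above it. Atp1b2 made up 21.0 ± 4.31% of the beta counts at 6m and 27.2 ± 3.47% at 24m (SD, n = 4 per age), with overlap. The 3 calcium pump genes Atp2a2, Atp2b1 and Atp2b2 summed to 398.8, 368.9, 486.6 and 406.9 CPM at 6m and to 269.8, 383.6, 395.4 and 474.0 CPM at 24m, with aged replicate 1 lowest and the ages overlapping.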
